A study of Danio rerio with 20 samples.

Results

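The 38 gene symbols described here name the machinery that copies and divides chromosomes, from the MCM helicase and the clamp pcna to the cyclins, the mitotic kinases and the proliferation antigen mki67. Members were found by matching the symbols to the table. Of the 38 symbols, 37 matched 39 Ensembl identifiers, with 2 identifiers each for mcm6 and rrm2, and dut is not analysed here. An identifier was kept where at least 10 reads were counted in at least 5 libraries, which left 38 of the 32105 in the table. The identifier dropped was mcm6 (ENSDARG00000033231), with 1 to 13 counts per library.

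RNA of whole-tissue brain samples from male zebrafish (Danio rerio) of the strain labelled AB JxTu was sequenced in 20 libraries. The 4 groups of 5 libraries were fish of 1 year with the perturbation none, fish of 1 year with the perturbation swim-tunnel, fish of 3 years with none and fish of 3 years with swim-tunnel. They are called 1-year unexercised, 1-year exercised, 3-year unexercised and 3-year exercised below; in a swim tunnel a current of water makes the fish swim. The sources used here do not give the duration of the exercise or the interval before sampling. Nothing in the labels says that each library came from a separate fish, so each p-value refers to the spread between libraries, which may be technical. Age was compared between different fish, and "rose" and "fell" describe differences between such groups. In a bulk tissue, fewer cells of a type and less RNA per cell cannot be told apart.

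A dividing cell licenses its replication origins in G1 by loading the ring-shaped MCM helicase with the help of cdc6 and cdt1, and geminin (gmnn) blocks cdt1 afterwards so that DNA is copied once. During S phase pcna tethers the polymerases to the template, ribonucleotide reductase and thymidylate synthase supply deoxynucleotides, and uhrf1 with dnmt1 copies the methylation pattern onto the new strand. Cyclins bound to cyclin-dependent kinases drive these steps, and the aurora and polo kinases, the spindle checkpoint and kinesins carry out mitosis. The adult zebrafish brain keeps dividing radial glia and progenitors along its ventricles, and some of the genes, such as pcna and dnmt1, are also used in DNA repair or upkeep in cells that do not divide.

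The libraries held 23390453 to 34587938 counts. The neuronal marker list, set out to check the brain label, summed to 8014 to 12024 CPM (read counts relative to library size, scaled by TMM), with none of its 18 identifiers at 0. Other tissues were seen in some libraries. Pituitary markers summed to 1707 CPM in 3-year exercised replicate 1 and to at most 6.13 CPM elsewhere, and muscle, epidermis or retina and pineal scores were over 1.5 log2 units above the median in 9 libraries. A pair of libraries stood apart for the cell cycle genes themselves. In 3-year unexercised replicate 2 and in 3-year exercised replicate 1 the mean log2 CPM of the 38 identifiers was 2.09, and in the other 18 libraries it was 1.3 to 1.77. Replicate 2 of the 3-year unexercised group was the highest of its group for 28 of the 38 identifiers, and replicate 1 of the 3-year exercised group for 26 of 38. Together they were the highest of all 20 libraries for 10 and 13 identifiers, respectively.

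**Figure D1:**
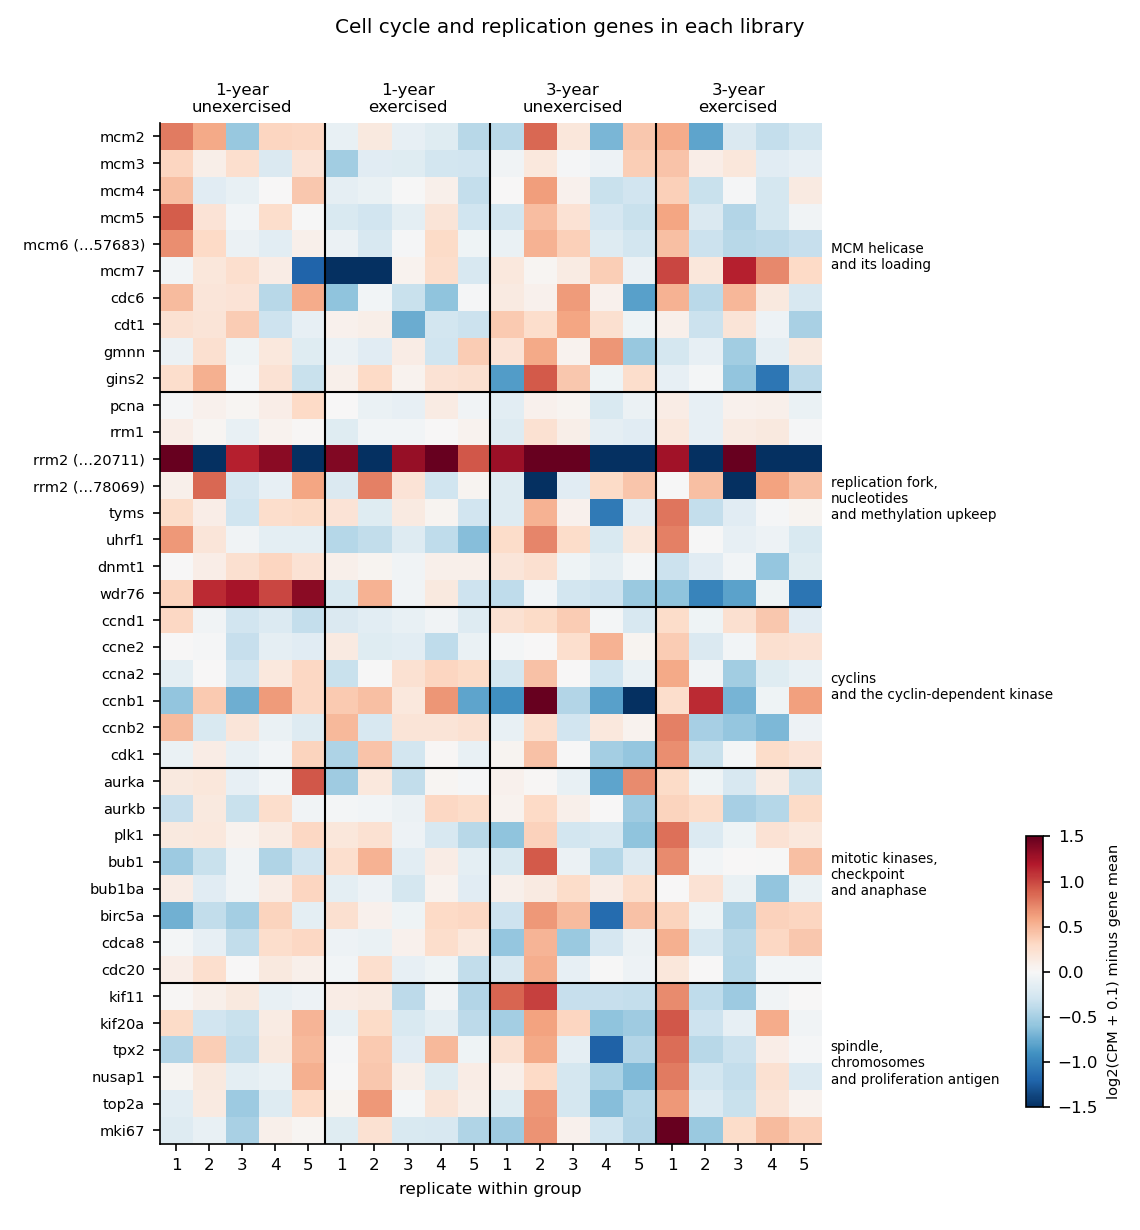
Each row is an identifier and each column a library; colour is log2(CPM + 0.1) minus the mean of the row over the 20 libraries, cut at 1.5 in both directions. The columns of 3-year unexercised replicate 2 and 3-year exercised replicate 1, with a mean log2 CPM of 2.09 each, are red in most rows, and the row of rrm2 (ENSDARG00000020711) switches between the ends of the scale because that identifier is at 0 in 7 libraries.

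The same libraries had the highest levels of immune markers. The summed level of the 16 identifiers of the lymphocyte list was 133 CPM in 3-year unexercised replicate 2 and 122 CPM in 3-year exercised replicate 1, and 16.9 to 71 CPM in the others. The 13 microglial identifiers summed to 2211 and 2686 CPM in those libraries and to 523 to 1610 CPM in the others. By group, the lymphocyte sum ran from 17.8 to 59.3 CPM in 1-year unexercised fish, from 16.9 to 23.2 CPM in 1-year exercised fish, from 24.4 to 133 CPM in 3-year unexercised fish and from 36.4 to 122 CPM in 3-year exercised fish. No identifier of either list was at 0 in all libraries, and 7 of the 16 lymphocyte identifiers had a median under 1 CPM. The part of these cells in the results below was not tested. Values without this pair are given beside several of the results.

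**Figure D2:**
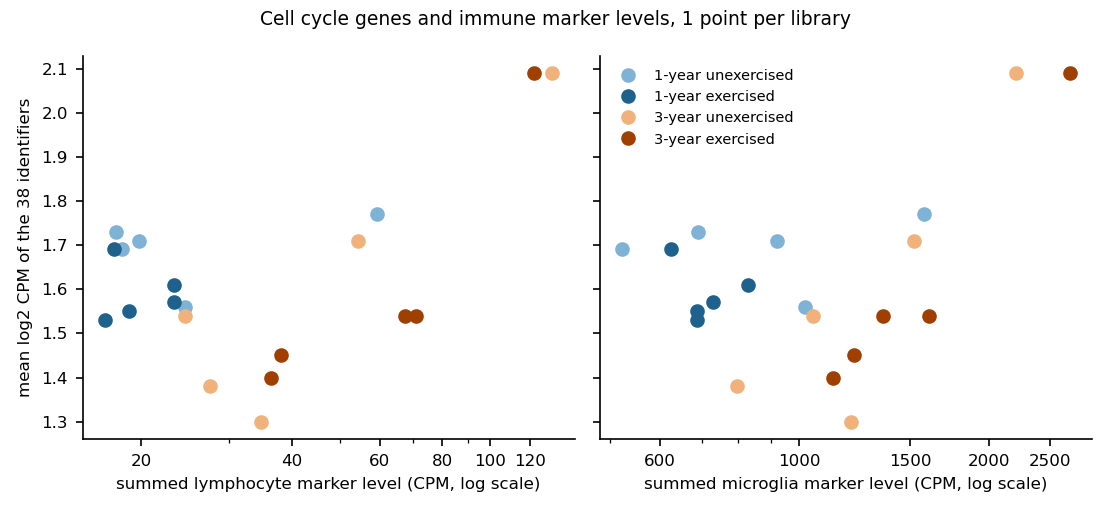
Each point is a library; the vertical axis is the mean log2 CPM of the 38 identifiers, and the horizontal axes are the summed CPM of the lymphocyte list (left) and the microglia list (right), on log scales. The points at 2.09 are 3-year unexercised replicate 2 and 3-year exercised replicate 1, which lie farthest right in both panels.

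Levels between genes were compared per kilobase of the gene length implied by the authors' RPKM table. The proliferating cell nuclear antigen pcna (ENSDARG00000054155) was highest, at 38.7 ± 3.37 CPM per kilobase (SD, n = 20). It was followed by mcm7 at 14 ± 6.01, the maintenance methyltransferase dnmt1 at 11.5 ± 1.62, the large ribonucleotide reductase subunit rrm1 at 7.30 ± 0.617 and the G1 cyclin ccnd1 at 4.54 ± 0.797 CPM per kilobase. The spreads of mcm7 and dnmt1, the neighbours in this order, overlap. All other identifiers lay between 0.270 (ccnb2, a mitotic cyclin) and 2.46 CPM per kilobase (mcm3). The mitotic genes top2a at 1.48, cdk1 at 1.45 and ccnb1 at 1.27 CPM per kilobase lay near the middle and bub1 at 0.361 and kif20a at 0.356 near the bottom, as did the replication gene gins2 at 0.610. The mean within-group coefficient of variation had a median of 25.3% over the 38 identifiers, whose median level was 2.01 CPM, and of 18.7% over 21142 genes with a median level of 10.8 CPM. It was lowest for pcna, at 7.99%, and rrm1, at 8.18%.

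The first question of the design is how the genes differ between 1 and 3 years. Below, passed and called refer to the edgeR fit of all 20 libraries unless another tool, another fit or a left-out library is named. Without exercise, 1 of the 38 identifiers passed the test, wdr76, which was lower at 3 years. Over all genes, 0.586% of 21148 genes passed in this comparison, 0.364% of them as lower. With exercise 1 of 38 passed, mcm7, which was higher at 3 years, beside 10.6% of all genes (6.77% higher, 3.88% lower). Averaged over exercise 2 of 38 passed, wdr76 and dnmt1, both lower at 3 years, beside 16.9% of all genes (9.65% higher, 7.3% lower). Without exercise, 2 identifiers had an unadjusted p below 0.05, beside 14.1% of all genes. With exercise 7 of the 38 had an unadjusted p below 0.05, beside 26.4% of all genes, and averaged 6 of 38, beside 31.1%. Median log2 fold changes of the 38 were -0.05 without exercise, 0.10 with exercise and -0.02 averaged, and those of all genes 0.00, 0.01 and 0.00.

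The gene wdr76 (ENSDARG00000053554) encodes a WD-repeat protein that in yeast and human cells is found on chromatin and at sites of DNA damage. Its levels in 1-year unexercised fish were 2.14, 3.75, 4.08, 3.44 and 4.42 CPM, and in 3-year unexercised fish 1.26, 1.63, 1.36, 1.33 and 1.11 CPM. The lowest 1-year library was above the highest 3-year one, so these groups did not overlap, which 1.36% of all genes did in this direction. In exercised fish the levels were 1.41, 2.45, 1.61, 1.86 and 1.33 CPM at 1 year and 1.07, 0.789, 0.915, 1.60 and 0.731 CPM at 3 years, and here the groups overlapped through 3-year replicate 4. In these units the means were 3.57 ± 0.875, 1.34 ± 0.189, 1.73 ± 0.452 and 1.02 ± 0.349 (SD, n = 5 each), in the order given. Without exercise wdr76 fell by 1.41 ± 0.24 (log2 scale, SE; adjusted p = 0.00602 by edgeR's quasi-likelihood test), and averaged over exercise it fell by 1.09 ± 0.17 (adjusted p = 0.000713). With exercise its log2 fold change was -0.76 ± 0.24 (adjusted p = 0.0525). The call without exercise held when any single library was left out; with the 9 libraries that had high muscle, epidermis or retina scores left out, the log2 fold change was -1.42 and the adjusted p 0.0949.

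The gene dnmt1 (ENSDARG00000030756), which copies CpG methylation to the daughter strand, was measured with 1244 to 2137 counts per library. It stood at 57.5, 61.8, 67.8, 72.0 and 67.0 CPM in 1-year unexercised fish and at 60.5, 59.3, 55.5, 60.5 and 60.8 CPM in 1-year exercised fish. Its 3-year levels were 65.3, 68.1, 54.9, 51.9 and 56.4 CPM without exercise and 45.8, 51.2, 55.9, 38.3 and 50.6 CPM with exercise. The 3-year exercised group was the lowest, and only its highest library, at 55.9 CPM, passed the lowest 1-year exercised library. Averaged over exercise dnmt1 fell by 0.22 ± 0.07 on the log2 scale (adjusted p = 0.0318). This call was lost, at adjusted p of 0.0501 to 0.0639, when any of 1-year unexercised replicates 3, 4 and 5, 1-year exercised replicates 4 and 5, 3-year unexercised replicates 3 and 4 or 3-year exercised replicate 1 was left out. With upper quartile scaling the adjusted p was 0.0524, and with the 9 libraries of high other-tissue scores left out the log2 fold change was -0.08 (adjusted p = 0.421).

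The helicase subunit mcm7 (ENSDARG00000101180) ran over a wider range than the other subunits, with its highest library at 7.35 times its lowest. It was counted at 31.2, 36.0, 38.3, 34.7 and 13.9 CPM in 1-year unexercised fish and at 10, 9.82, 33.3, 38.6 and 27.2 CPM in 1-year exercised fish. In 3-year fish the values were 35.9, 32.8, 34.8, 41.5 and 30.2 CPM without exercise and 64.5, 36.2, 72.2, 53.0 and 39.4 CPM with exercise. At 1 year 3 libraries, 1 unexercised and 2 exercised, were below 14 CPM, and the 3-year exercised group held the highest values. The groups overlapped in exercised fish, where mcm7 rose by a log2 fold change of 1.16 ± 0.35 (adjusted p = 0.0392). The call was lost when 1-year exercised replicate 1 (adjusted p = 0.0819), 2 (0.073) or 5 (0.0672) or 3-year exercised replicate 1 (0.0995), 3 (0.09) or 4 (0.0562) was left out. It was also lost in a fit of the compared groups alone (0.0824), with 3-year unexercised replicate 2 and 3-year exercised replicate 1 left out (0.105) and with the libraries of high other-tissue scores left out (0.349). In unexercised fish the log2 fold change was 0.19 ± 0.34 (adjusted p = 0.855). Other identifiers passed with exercise in some fits that left out a library: dnmt1 and wdr76, with 3 called in all, without 1-year unexercised replicate 1; dnmt1 without 3-year unexercised replicate 2 or 4, with 2 called; and mcm3 and wdr76, without mcm7, when 3-year exercised replicate 4 was left out. None passed there without 1-year exercised replicate 1, 2 or 5 or 3-year exercised replicate 1, and dnmt1 alone passed without 3-year exercised replicate 3. Without 3-year exercised replicate 2, mki67 passed beside mcm7, and averaged over exercise 4 identifiers passed (ccnd1, ccne2, dnmt1 and wdr76). The share of all genes called is not given for fits that left out a single library. Their counts are therefore not read as results about the 38 identifiers.

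**Figure D3:**
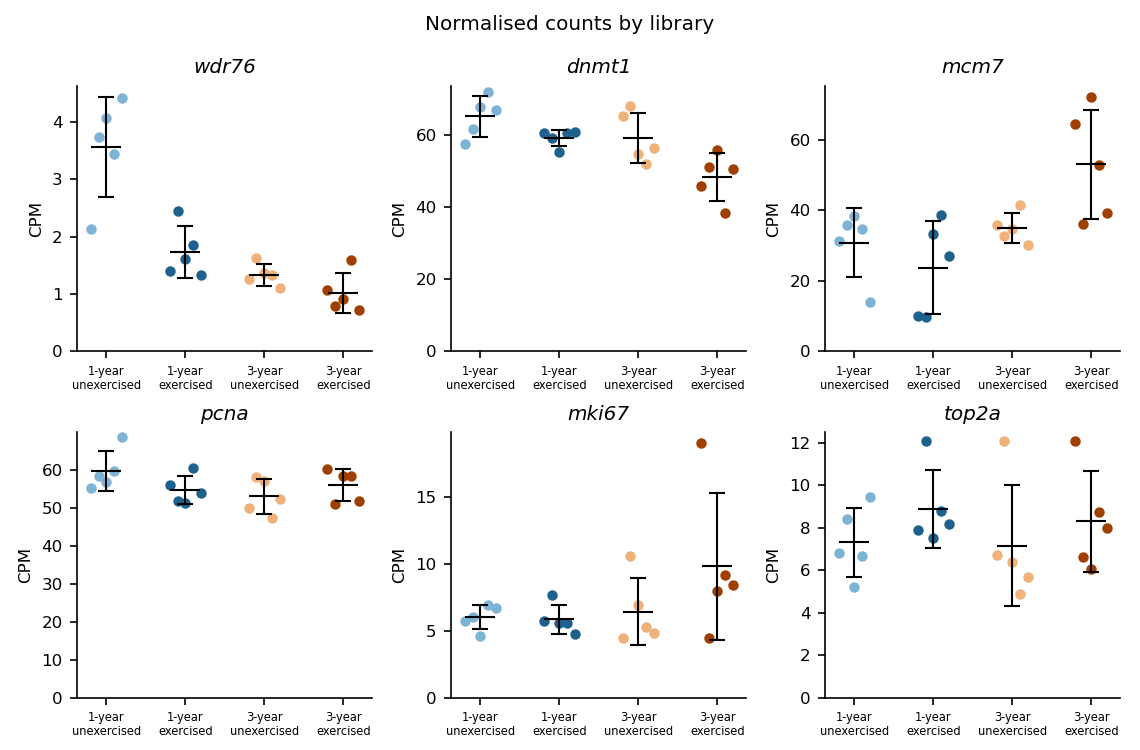
Points are the CPM of wdr76, dnmt1, mcm7, pcna, mki67 and top2a in each library, with the mean and SD of the 5 libraries of a group as bars, on axes that start at 0. All 5 points of wdr76 in 3-year unexercised fish (1.11 to 1.63 CPM) lie below the lowest 1-year unexercised one (2.14 CPM), and mki67 has a point at 19.1 CPM in 3-year exercised fish.

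DESeq2 called 1, 3 and 5 identifiers without exercise, with exercise and averaged; the additional ones were dnmt1 and wdr76 with exercise, and ccnd1, ccne2 and mcm7 averaged. The corresponding counts with limma-voom were 1, 1 and 3. Over all genes DESeq2 called 533, 3403 and 4682, limma-voom 122, 1894 and 3270, and edgeR 124, 2252 and 3584. In the edgeR fit, ccnd1, a cyclin of the G1 phase, had a log2 fold change of 0.27 ± 0.10 averaged over exercise (adjusted p = 0.0605), and ccne2, a cyclin of the G1 to S transition, of 0.29 ± 0.10 (adjusted p = 0.0671). The replicative helicase subunit mcm3 did not overlap between exercised fish of 1 year, at 5.15 to 6.56 CPM, and of 3 years, at 6.58 to 9.97 CPM; 6.99% of all genes did not overlap in that direction. Its log2 fold change was 0.38 ± 0.13 (adjusted p = 0.0735). The GINS subunit gins2, which activates the helicase, was at 0.516 to 0.625 CPM in exercised fish of 1 year and at 0.178 to 0.479 CPM at 3 years, again without overlap, as were 4.34% of all genes in that direction. Its log2 fold change was -0.70 ± 0.34 (adjusted p = 0.191), from counts of 6 to 32 per library.

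The age differences moved with the pair of libraries that stood apart. Both are 3-year libraries with the highest mean level of the 38 identifiers. Leaving them out was therefore bound to lower the 3-year levels. With all libraries, 14 of the 38 identifiers had a positive log2 fold change without exercise and 25 with exercise. Of all genes 50.5% and 48.7% were negative in these comparisons. Without 3-year unexercised replicate 2 and 3-year exercised replicate 1, 9 were positive and 29 negative without exercise, with a median of -0.20, and 14 were positive and 24 negative with exercise, with a median of -0.03. Identifiers called were then 1 without exercise (wdr76), 0 with exercise and 2 averaged (dnmt1 and wdr76). Over all genes 118, 1299 and 2474 were called in that fit, and 124, 2252 and 3584 with all libraries. Markers of other cells changed with age as well. In exercised fish 9 of 13 microglial, 6 of 14 lymphocyte and 2 of 10 oligodendrocyte lineage identifiers tested rose, and 4 of 18 neuronal ones fell. Of other lists, 3 of 3 pituitary, 1 of 7 neutrophil and 1 of 12 muscle identifiers rose in the same comparison. The pituitary sum was 1707 CPM in 3-year exercised replicate 1, which belongs to that pair, and at most 6.13 CPM elsewhere. There 0 of 17 radial glial and 0 of 15 neuroblast ones passed, and 6.77% of all genes rose and 3.88% fell. Averaged over exercise 9 microglial, 8 lymphocyte, 3 oligodendrocyte lineage and 2 radial glial identifiers rose. So did 1 pituitary, 1 neutrophil and 1 muscle identifier. In that comparison 6 neuronal and 1 neuroblast identifiers fell, and 9.65% of all genes rose and 7.3% fell. In unexercised fish none of these lists held a called identifier. An unadjusted p below 0.05 was found for 4 microglial, 5 lymphocyte, 2 oligodendrocyte lineage, 3 neuronal, 4 radial glial and 1 neuroblast identifiers, beside 14.1% of all genes. It was also found for 3 muscle, 0 pituitary and 0 neutrophil identifiers. The part of these cells in the age differences of the cell cycle genes was not tested.

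The second question is how the genes differ after exercise. At 1 year 0 of 38 identifiers passed, with 4 at an unadjusted p below 0.05, beside 0.0189% and 11.5% of all genes. The count was 1 with DESeq2 (wdr76) and 0 with limma-voom. Over all genes DESeq2 called 268 at 1 year, limma-voom 17 and edgeR 4. At 3 years 0 of 38 passed, with 3 at an unadjusted p below 0.05, beside 0.0284% and 8.07% of all genes, and both other tools called 0. Over all genes DESeq2 called 118 at 3 years, limma-voom 3 and edgeR 6. Averaged over age 0 of 38 passed, with 5 at an unadjusted p below 0.05, beside 0.908% (0.681% higher, 0.227% lower) and 13.8% of all genes, and DESeq2 and limma-voom each called 1, wdr76. Over all genes DESeq2 called 660 in this comparison, limma-voom 207 and edgeR 192. Median log2 fold changes of the 38 were -0.13, 0.00 and -0.02, and those of all genes -0.02, 0.00 and -0.02.

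At 1 year wdr76 had the smallest p. Of the exercised libraries 4 lay below the lowest unexercised one, at 2.14 CPM, and the exercised replicate at 2.45 CPM lay above it. The log2 fold change was -1.04 ± 0.24 (adjusted p = 0.103). At 3 years it was -0.39 ± 0.24 (adjusted p = 0.772), and averaged over age -0.72 ± 0.17 (adjusted p = 0.0526). The averaged value passed when 1-year unexercised replicate 1, 1-year exercised replicate 2, 3-year exercised replicate 1 or 3-year exercised replicate 4 was left out, and with upper quartile scaling, with 1 identifier called in each. Shares over all genes are not given for these fits, so the counts are not read as results about the cell cycle genes.

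Of the 10 identifiers for the MCM helicase and its loading, 9 had a negative log2 fold change at 1 year, with a median of -0.34 and none called. Of all 38 identifiers 26 were negative, and of all genes 54.8%. The subunit mcm3 had -0.43 ± 0.13 (adjusted p = 0.244), mcm2 -0.48 ± 0.29, mcm5 -0.46 ± 0.23 and the loader cdc6 -0.57 ± 0.27 (adjusted p = 0.436 to 0.549 for these 3). Replicate 1 of the 1-year unexercised group was the highest of its group for 5 of the 10, among them mcm2, mcm3 and mcm5. That library also had the highest muscle and epidermis marker sums of all libraries, at 7358 and 2195 CPM. Fold changes without it are not given here. The hemimethylation reader uhrf1, which recruits dnmt1, was at 2.82 to 4.97 CPM in unexercised and 1.99 to 2.74 CPM in exercised fish. These ranges did not overlap, as for 0.979% of all genes in that direction, and the log2 fold change was -0.54 ± 0.22 (adjusted p = 0.366). No identifier of the marker lists was called in this comparison. All 13 microglial markers had a negative log2 fold change and 8 an unadjusted p below 0.05. Positive values were found for 3 of 14 lymphocyte, 1 of 7 neutrophil, 1 of 8 erythroid, 4 of 12 muscle and 1 of 10 epidermis identifiers. They were found for 15 of 18 neuronal, 10 of 17 radial glial, 9 of 15 neuroblast and 7 of 7 retina and pineal ones. An unadjusted p below 0.05 was found for 7 muscle, 3 epidermis, 3 retina and pineal, 3 radial glial and 3 neuroblast identifiers. It was also found for 2 of 9 endothelial, 2 erythroid, 1 lymphocyte, 1 neutrophil and 1 of 10 oligodendrocyte lineage identifiers and for 0 neuronal ones. Over all genes the share was 11.5%. The part of these cells and tissues was not tested.

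At 3 years the smallest p was that of dnmt1, with a log2 fold change of -0.30 ± 0.09 (adjusted p = 0.394). The polo kinase plk1 had 0.48 ± 0.23 (adjusted p = 0.605), gins2 -0.78 ± 0.33 (adjusted p = 0.543) and mki67 0.61 ± 0.30 (adjusted p = 0.638). Without the pair of libraries that stood apart these values were -0.22 ± 0.10 for dnmt1, 0.48 ± 0.19 for plk1, -0.60 ± 0.35 for gins2 and 0.48 ± 0.21 for mki67 (adjusted p = 0.426 to 0.632). With all libraries, 5 of the 6 identifiers for the spindle, chromosomes and the proliferation antigen had positive values, with a median of 0.24. These 6 include top2a and mki67. Of the 10 identifiers for the MCM helicase and its loading, 7 were negative, with a median of -0.16. Of all 38 identifiers 20 were positive, with a median of 0.00, and of all genes 48.9% were negative. The question of whether the exercise difference depends on age was tested as the difference of both exercise effects. There 0 of 38 passed, with 2 at an unadjusted p below 0.05 (mcm3, 0.43 ± 0.19, and plk1, 0.70 ± 0.32), beside 0.00473% and 4.75% of all genes, and DESeq2 and limma-voom called 0. Over all genes DESeq2 called 12 for this difference, limma-voom 1 and edgeR 1.

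**Figure D4:**
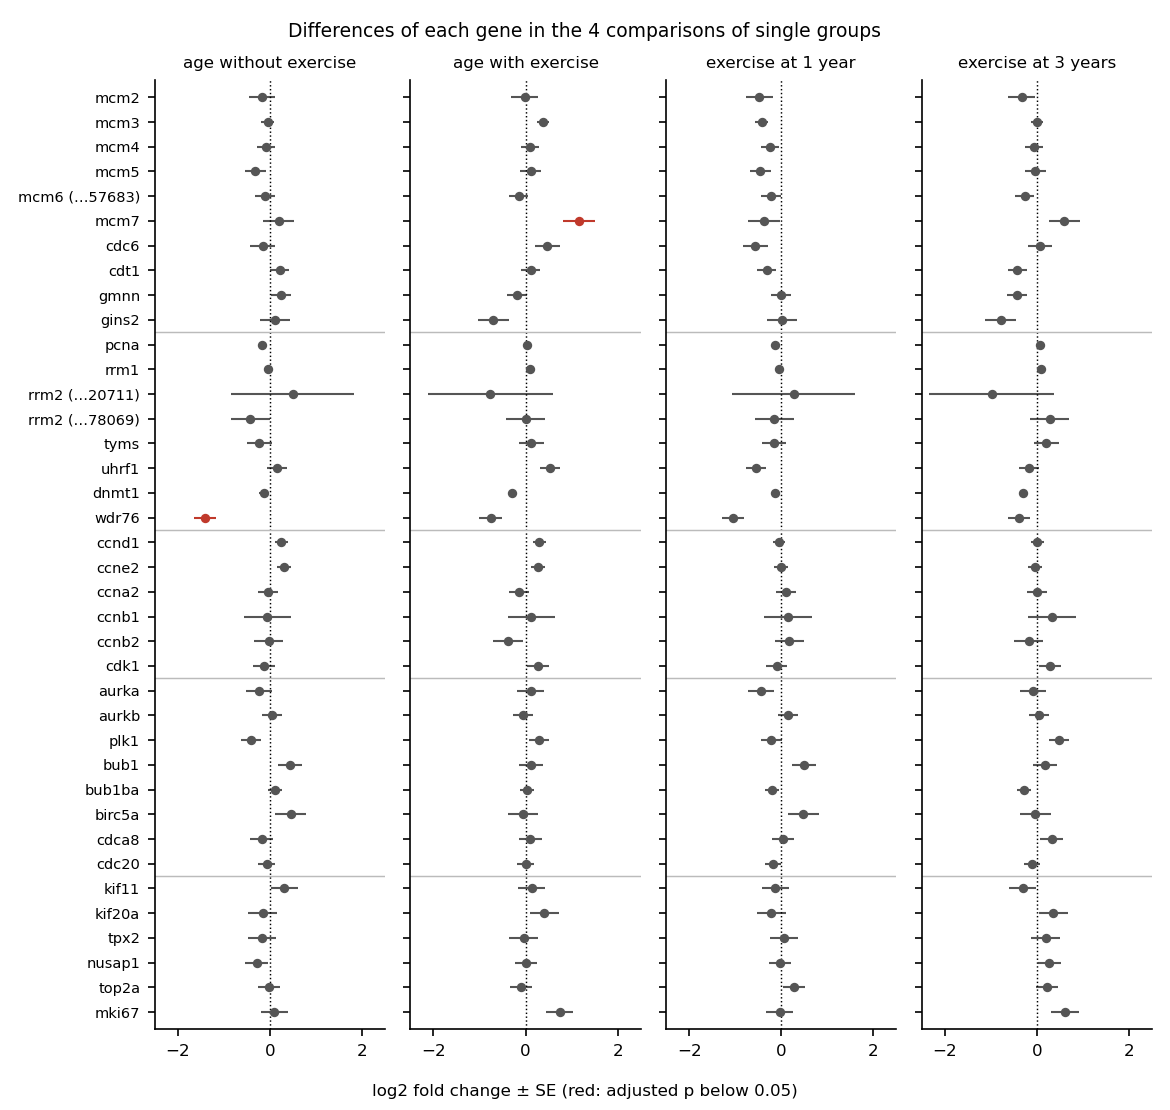
Log2 fold changes with standard errors of the 38 identifiers, ordered by role, for age without exercise, age with exercise, exercise at 1 year and exercise at 3 years; positive values are higher at 3 years or after exercise. Red points passed at an adjusted p below 0.05, which are wdr76 in the first panel (-1.41) and mcm7 in the second (1.16).

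Within the roles, the MCM hexamer was measured through 6 subunits. The subunit mcm2 (ENSDARG00000102798) was at 10.5, 9.04, 4.08, 7.66 and 7.59 CPM in 1-year unexercised fish and at 5.65, 6.74, 5.58, 5.37 and 4.52 CPM in 1-year exercised fish. Fish of 3 years had 4.58, 11.1, 6.88, 3.74 and 8.10 CPM without exercise and 8.98, 3.47, 5.23, 4.74 and 5.03 CPM with exercise. All 4 groups overlapped, and the highest value was that of 3-year unexercised replicate 2. The subunit mcm5 (ENSDARG00000019507) was at 8.48, 5.19, 4.34, 5.39 and 4.45 CPM in 1-year unexercised fish and at 3.81, 3.66, 4.03, 5.13 and 3.62 CPM in 1-year exercised fish. The levels at 3 years were 3.68, 6.22, 5.22, 3.74 and 3.52 CPM without exercise and 6.77, 3.83, 3.27, 3.71 and 4.30 CPM with exercise. These groups overlapped too, with the highest library of a group at 8.48, 5.13, 6.22 and 6.77 CPM. The subunits mcm4 and mcm6 (ENSDARG00000057683) ranged from 4.78 to 9.53 and from 4.38 to 9.60 CPM over the 20 libraries. The licensing genes cdc6, cdt1 and gmnn ranged from 1.03 to 2.99, from 1.06 to 2.84 and from 1.30 to 3.16 CPM. None of these 7 passed in any comparison.

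Among the genes of the fork and of nucleotide supply, pcna and rrm1 varied least. The clamp pcna was at 55.3, 58.4, 57.0, 59.8 and 68.9 CPM in 1-year unexercised fish and at 56.2, 52.0, 51.3, 60.5 and 53.9 CPM in 1-year exercised fish. At 3 years it was at 50, 58.2, 57.3, 47.5 and 52.5 CPM without exercise and at 60.4, 51.0, 58.5, 58.6 and 52.0 CPM with exercise. All groups overlapped and the highest library was 1.45 times the lowest. The log2 fold change of pcna with age was -0.17 ± 0.07 without exercise (adjusted p = 0.299) and 0.03 ± 0.07 with exercise (adjusted p = 0.82). The reductase subunit rrm1 ranged from 18.7 to 24.9 CPM, and the thymidylate synthase tyms from 0.826 to 3.28 CPM, and neither passed in any comparison.

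The small ribonucleotide reductase subunit rrm2 was counted under 2 identifiers. ENSDARG00000020711 had no count in 7 libraries and was under 0.1 CPM in 8, and in the other 12 it was at 0.83 to 2.55 CPM. In 1-year unexercised fish it was at 1.53, 0, 0.989, 1.14 and 0 CPM, in 1-year exercised fish at 1.18, 0, 1.1, 1.27 and 0.83 CPM, in 3-year unexercised fish at 1.09, 2.55, 1.44, 0 and 0.0382 CPM and in 3-year exercised fish at 1.07, 0, 1.57, 0 and 0 CPM. Libraries at or near 0 were found in every group. ENSDARG00000078069 showed the opposite pattern. It was at 2.23 to 3.35 CPM in the 8 libraries in which the first was under 0.1 CPM, and at 0.457 to 2.10 CPM in the other 12. The sum of both was steadier, at 2.03 to 3.44 CPM, and its coefficient of variation over the 20 libraries was 12.9%, while those of the identifiers were 93.8% and 38.5%. The sequences of the identifiers were not compared. The sources used here do not say how a read that matches both would be counted. Neither identifier is therefore taken alone as the level of rrm2. Summed, the level was 2.97 ± 0.410, 2.89 ± 0.246, 2.68 ± 0.348 and 2.54 ± 0.331 CPM in the 4 groups (SD, n = 5 each), in the order above, and no comparison passed (adjusted p = 0.274 to 0.993).

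**Figure D5:**
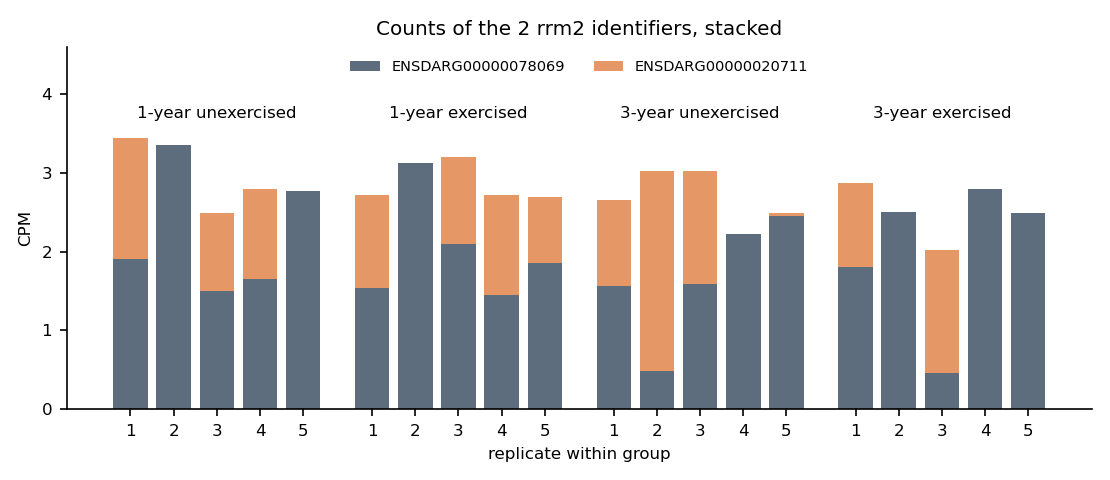
Stacked bars give the CPM of the identifiers ENSDARG00000078069 and ENSDARG00000020711 of rrm2 in each library, by group. The height of the stack stays between 2.03 and 3.44 CPM while the share of ENSDARG00000020711 runs from 0 in 7 libraries to 84.2% in 3-year unexercised replicate 2.

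Of the cyclins and their kinase, ccnd1 (ENSDARG00000101637) was at 27, 21.0, 17.8, 18.9 and 17.0 CPM in 1-year unexercised fish and at 18.8, 19.5, 20.2, 21.0 and 19.0 CPM in 1-year exercised fish. Its 3-year levels were 25.5, 26.7, 28.5, 21.4 and 18.4 CPM without exercise and 26.3, 20.8, 25.8, 28.8 and 19.4 CPM with exercise. In 3 libraries of each 3-year group it was above 25 CPM, as in 1 library of the 1-year groups. The S phase cyclin ccna2 (ENSDARG00000011094) was at 1.77, 1.98, 1.60, 2.2 and 2.46 CPM in 1-year unexercised, and at 1.54, 1.96, 2.32, 2.48 and 2.42 CPM in 1-year exercised fish. At 3 years ccna2 was at 1.63, 2.71, 1.97, 1.58 and 1.83 CPM without, and at 2.98, 1.89, 1.34, 1.72 and 1.81 CPM with exercise. Its groups overlapped, and its highest library at 3 years in each group was replicate 2 of the unexercised and replicate 1 of the exercised fish.

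The mitotic kinase cdk1 (ENSDARG00000087554) showed the same libraries highest. It was at 1.8, 2.09, 1.79, 1.87 and 2.46 CPM in 1-year unexercised fish and at 1.38, 2.63, 1.58, 1.96 and 1.79 CPM in 1-year exercised fish. In 3-year fish the values were 1.99, 2.65, 1.93, 1.33 and 1.26 CPM without exercise and 3.2, 1.52, 1.89, 2.37 and 2.25 CPM with exercise. Its partner ccnb1 (ENSDARG00000051923) had the widest spread of the cyclins, with a mean within-group coefficient of variation of 57.8%. It was at 1.70, 3.46, 1.53, 4.1 and 3.27 CPM in 1-year unexercised fish and at 3.45, 3.61, 2.93, 4.17 and 1.46 CPM in 1-year exercised fish. Fish of 3 years had 1.33, 8, 1.89, 1.44 and 0.841 CPM without exercise and 3.16, 5.78, 1.57, 2.49 and 4.04 CPM with exercise. For both genes all groups overlapped. The log2 fold changes of ccnb1 had standard errors of 0.52 in the comparisons of single groups. With all libraries ccnb1 had -0.05 for age without exercise (adjusted p = 0.978) and 0.33 for exercise at 3 years (adjusted p = 0.938). Without the pair of libraries that stood apart it had -1.04 ± 0.41 (adjusted p = 0.31) and 1.34 ± 0.43 (adjusted p = 0.328). That pair includes 3-year unexercised replicate 2, the highest library for ccnb1. Leaving that library out was bound to move both values in these directions. In the edgeR fit of all libraries none of ccna2, ccnb1, ccnb2 (0.237 to 0.810 CPM), ccne2 (2.89 to 5.5 CPM) and cdk1 passed in any comparison. The cyclin ccne2 passed for age averaged over exercise with DESeq2, without 1-year exercised replicate 1 and without 3-year exercised replicate 2.

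The 8 genes of mitotic kinases, checkpoint and anaphase were all at low levels, with means over the libraries from 0.715 CPM (birc5a, a subunit of the chromosomal passenger complex) to 1.86 CPM (plk1). The passenger complex kinase aurkb (ENSDARG00000037640) was at 1.36, 1.95, 1.37, 2.12 and 1.69 CPM in 1-year unexercised fish and at 1.71, 1.70, 1.64, 2.2 and 2.13 CPM in 1-year exercised fish. The levels at 3 years were 1.82, 2.17, 1.85, 1.76 and 1.18 CPM without exercise and 2.24, 2.14, 1.21, 1.28 and 2.16 CPM with exercise. The 4 groups had nearly the same means, at 1.70 ± 0.340, 1.88 ± 0.267, 1.76 ± 0.357 and 1.81 ± 0.518 CPM. The spindle checkpoint kinase bub1 had a log2 fold change of 0.49 ± 0.26 for exercise at 1 year (adjusted p = 0.491), and its checkpoint partner bub1ba one of -0.24 ± 0.11 for exercise averaged over age (adjusted p = 0.362). The centrosomal kinase aurka, the anaphase activator cdc20 and the passenger complex subunit cdca8 ranged from 0.503 to 1.89, from 1.18 to 2.42 and from 0.896 to 2.06 CPM and passed in no comparison.

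The proliferation antigen mki67 (ENSDARG00000091150) was at 5.75, 6.09, 4.66, 6.96 and 6.74 CPM in 1-year unexercised fish and at 5.78, 7.72, 5.61, 5.58 and 4.81 CPM in 1-year exercised fish. At 3 years it was at 4.51, 10.6, 6.92, 5.32 and 4.85 CPM without exercise and at 19.1, 4.45, 8, 9.22 and 8.48 CPM with exercise. In exercised fish 4 of the 5 3-year libraries were above all 1-year ones, and 1 was below them. The log2 fold change there was 0.74 ± 0.30 (adjusted p = 0.119), and without 3-year unexercised replicate 2 and 3-year exercised replicate 1 it was 0.34 ± 0.20 (adjusted p = 0.369). Leaving out 3-year exercised replicate 1, the library at 19.1 CPM, was bound to lower this value. The gene mki67 passed there when 3-year exercised replicate 2, the library at 4.45 CPM, was left out.

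Topoisomerase top2a (ENSDARG00000024488), which untangles sister chromatids, was at 6.84, 8.40, 5.20, 6.70 and 9.44 CPM in 1-year unexercised fish and at 7.88, 12.1, 7.51, 8.81 and 8.17 CPM in 1-year exercised fish. Its 3-year levels were 6.73, 12.1, 6.39, 4.88 and 5.69 CPM without exercise and 12.1, 6.65, 6.08, 8.75 and 7.98 CPM with exercise. A library at 12.1 CPM was seen in every group except 1-year unexercised fish, and all groups overlapped. Its log2 fold change with age was -0.03 ± 0.24 without and -0.10 ± 0.24 with exercise, and -0.31 ± 0.19 and -0.29 ± 0.18 without the pair of libraries that stood apart (adjusted p = 0.412 to 0.972 over these values). Each library of that pair was the highest of its group for top2a, so lower age values were bound to follow. The kinesins kif11, which builds the bipolar spindle, and kif20a, which acts in cytokinesis, ranged from 1.47 to 4.53 and from 0.647 to 2.06 CPM, and the spindle assembly factors tpx2 and nusap1 from 1.08 to 4.78 and from 1.38 to 3.90 CPM. None of these passed in any comparison.

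Other genes of the pathway, picked by their roles in licensing, the replisome, cell cycle regulation and inhibition, mitosis, and condensin and cohesin, gave 141 tested identifiers. Without exercise 0 passed for age, with 10 at an unadjusted p below 0.05, beside 0.586% and 14.1% of all genes. With exercise 5 rose and 0 fell, which is 3.55% of the 141 beside 10.6% of all genes, and averaged over exercise 8 rose and 2 fell, which is 7.09% beside 16.9%. For exercise 0 passed at 1 year and 0 at 3 years, with 13 and 9 at an unadjusted p below 0.05, and 0 passed in the difference of both, with 7. Over all genes 0.0189%, 0.0284% and 0.00473% passed in these comparisons, and 11.5%, 8.07% and 4.75% had such an unadjusted p. DESeq2 called 1 of the 141 for exercise at 3 years and 0 in the other comparisons with a count of 0 here, and limma-voom called 0 in all of these. Over all genes DESeq2 called 118 for exercise at 3 years and edgeR 6. Averaged over age 1 fell, e2f4, a repressor of cell cycle genes, by 0.20 ± 0.04 on the log2 scale (adjusted p = 0.0361). That count was 0 in every fit that left out a library except those without 1-year unexercised replicate 1, 2 or 5, 1-year exercised replicate 4 or 3-year exercised replicate 1 or 5.

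The 5 that rose with age in exercised fish were cdkn1a, rbl1, rbl2, rad21a and ncapd3. The inhibitor cdkn1a, which blocks cyclin-dependent kinases, was at 1.07 ± 0.368 CPM in 1-year unexercised, 0.895 ± 0.109 in 1-year exercised, 1.51 ± 0.346 in 3-year unexercised and 1.72 ± 0.418 CPM in 3-year exercised fish (SD, n = 5 each). It rose with age by 0.94 ± 0.25 on the log2 scale in exercised fish (adjusted p = 0.0225) and by 0.72 ± 0.17 averaged over exercise (adjusted p = 0.00927). The pocket proteins rbl1 and rbl2, which hold E2F factors in check, rose in exercised fish by 0.59 ± 0.13 (adjusted p = 0.0107) and 0.29 ± 0.07 (adjusted p = 0.0149). The cohesin subunit rad21a rose by 0.25 ± 0.07 (adjusted p = 0.0297) and the condensin subunit ncapd3 by 0.67 ± 0.21 (adjusted p = 0.0478). Averaged over exercise rbl1, rbl2, cdkn1a and ncapd3 rose, as did the clamp loader subunit rfc1 (0.21 ± 0.06), the checkpoint and initiation factor topbp1 (0.23 ± 0.08), mybl2a, a relative of the S phase activator mybl2 (0.37 ± 0.10), and the spindle protein hmmr (0.49 ± 0.17), with adjusted p of 0.0036 to 0.0492. The fork protection factor tipin (-0.25 ± 0.08) and the cyclin ccnd2 (ENSDARG00000051748, -0.27 ± 0.09) fell, with adjusted p of 0.0336 and 0.037.

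The counts moved when some libraries were left out. With the 9 libraries of high other-tissue scores left out, 0 of the 141 were called for age with exercise, for age averaged over exercise and for exercise averaged over age. That fit kept 4 1-year unexercised, 3 1-year exercised, 2 3-year unexercised and 2 3-year exercised libraries. With exercise 2 were called without 1-year exercised replicate 3, without 1-year exercised replicate 5, without 3-year exercised replicate 1, and without both 3-year unexercised replicate 2 and 3-year exercised replicate 1. Averaged, 6 were called without 1-year unexercised replicate 4, 1-year exercised replicate 3 or 5, 3-year unexercised replicate 3 or the pair of libraries that stood apart. Over all genes 1299 (with exercise) and 2474 (averaged) were called without the pair, and 2252 and 3584 with all libraries. Such counts are not given for the other fits, so these moves are not read as results about the 141. Without that pair cdkn1a (0.91 ± 0.26, adjusted p = 0.0477) and rbl1 (0.48 ± 0.12, adjusted p = 0.0246) still rose with exercise, while ncapd3 had 0.42 ± 0.18 (adjusted p = 0.177), rbl2 0.26 ± 0.08 (adjusted p = 0.0687) and rad21a 0.22 ± 0.07 (adjusted p = 0.0777). Averaged over exercise hmmr then had 0.31 ± 0.15 (adjusted p = 0.199), ncapd3 0.29 ± 0.12 (adjusted p = 0.151), topbp1 0.22 ± 0.09 (adjusted p = 0.109), tipin -0.26 ± 0.08 (adjusted p = 0.0567) and mybl2a 0.35 ± 0.11 (adjusted p = 0.0517). For exercise averaged over age e2f4 then had -0.18 ± 0.05 (adjusted p = 0.0554). The activator e2f1, mybl2, rb1 and both identifiers of the inhibitor cdkn1b passed in no comparison, with averaged log2 fold changes for age from -0.05 to 0.14 (adjusted p = 0.423 to 0.921). The mitotic activator foxm1 was below the level tested, with group means of 0.124 to 0.172 CPM.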

How the data were processed

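RNA of zebrafish brain was measured in 20 libraries, prepared with the TruSeq RNA v2 kit per the labels' protocols; this kit does not mark strand, so overlapping antisense genes cannot be told apart. Software listed in the submitters' processing notes, with no role given, comprises STAR 2.4.1d, bcl2fastq 1.8.4 and featureCounts 1.4.6-p4; GRCz10 is the only build listed. The authors deposited read counts per Ensembl gene, used for all tests, and RPKM values. The deposited RPKM values imply a steady gene length only if the 20 library totals were applied in turn down the gene list (median CV of the implied length 0.00217%, against 13.8% with each library's own total, over 10136 genes with over 200 counts in every library). They were therefore used only for gene lengths.

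Symbols came from a reference table matching 26269 of 32105 identifiers; 29 of the 38 kept identifiers have an upper-case, human-style symbol there and are written in lower case, and birc5a was matched without its copy letter. The members, their roles and the wider lists were chosen with earlier results of these data known. Groups came from the age and perturbation labels; replicates were numbered by accession and pair nothing.

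Genes were kept by filterByExpr (minimum count 10, minimum total 15), which left 21148, with all 38 identifiers among them. TMM scaling and edgeR 4.0.16 (R 4.3.3) quasi-likelihood F-tests with robust dispersions were run with a coefficient for each of the 4 groups on all 20 libraries. Benjamini-Hochberg adjustment was made over all genes, with calls at 0.05. Every adjusted p is from this fit unless another tool, scaling, set of libraries or the summed rrm2 is named. Those values come from separate fits, each with its own adjustment. Each standard error was obtained from the log2 fold change divided by the root of F. The procedure was tested on simulated data. Alternatives were other scalings (RLE, upper quartile), other filters, DESeq2 1.42.0, limma-voom (limma 3.58.1), dispersions without robustness, fits of the compared groups, leaving out each library, leaving out 9 libraries with a muscle, epidermis or retina and pineal score over 1.5 above the median, and, chosen after seeing the data, leaving out the 2 libraries with the highest immune marker levels and summing the rrm2 identifiers. These 2 libraries also had the highest mean log2 CPM of the 38 identifiers. Values in each library are given for identifiers called in any comparison and for pcna, mki67, mcm2, mcm5, top2a, cdk1, ccnb1, ccna2, ccnd1, rrm2 and aurkb; called genes of the wider lists are named up to the 4 smallest p per list, direction and comparison. Those others described singly were chosen after their values were seen. No sequences or coordinates were used.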

Additional observations from a re-analysis of the deposited data

Results flagged for a closer look

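In 12 of 152 groups of 5 libraries (38 identifiers in 4 groups), or 7.89%, the highest or lowest library lay so far from its neighbour that the gap exceeded 0.71 of the range, Dixon's limit for 5 values. With independent, normally spread values chance flags about 1 in 20 groups, 5%. The identifiers share their libraries and the share flagged over all genes is not given, so 7.89% is not read as an excess. In 3-year unexercised replicate 2, ccnb1 was at 8 CPM (others 0.841 to 1.89), bub1 at 2.61 CPM (others 0.97 to 1.25), cdc20 at 2.42 CPM (others 1.36 to 1.62) and top2a at 12.1 CPM (others 4.88 to 6.73). In 3-year exercised replicate 1, mcm6 (ENSDARG00000057683) was at 8.06 CPM (others 4.38 to 4.68), tyms at 3.28 CPM (others 1.41 to 1.9) and uhrf1 at 5.37 CPM (others 2.66 to 3.13). These are the libraries with the highest lymphocyte and microglial marker levels. In 3-year exercised replicate 1 pituitary markers also summed to 1707 CPM and muscle markers to 943 CPM, each the highest of its group. The part of those cells and tissues was not tested. Elsewhere, mcm5 was at 8.48 CPM in 1-year unexercised replicate 1 (others 4.34 to 5.39) and at 5.13 CPM in 1-year exercised replicate 4 (others 3.62 to 4.03). The value of aurka was 1.89 CPM in 1-year unexercised replicate 5 (others 0.862 to 1.08), and top2a was at 12.1 CPM in 1-year exercised replicate 2 (others 7.51 to 8.81). A low library was found for dnmt1, at 55.5 CPM in 1-year exercised replicate 3 (others 59.3 to 60.8).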

How the results depend on the processing

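The fall of wdr76 with age kept its direction under all alternatives (log2 fold change -1.53 to -1.32 without exercise, -1.2 to -1.01 averaged); it missed the threshold once, without exercise, with the 9 libraries of high other-tissue scores left out (adjusted p = 0.0949), which leaves 4, 3, 2 and 2 libraries per group. The calls of dnmt1 (10 of 29 alternatives) and mcm7 (9 of 30) were lost more often, with the same sign throughout. Counts of the 38 called that moved by over 1.5 times, or from or to 0, were as follows. RLE scaling gave 3 for age with exercise, and upper quartile scaling 1 for exercise averaged over age. DESeq2 gave 3 and 5 for age with exercise and averaged, and 1 each for exercise at 1 year and averaged, and limma-voom 1 for exercise averaged. Over all genes DESeq2 called 3403, 4682, 268 and 660 in these 4 comparisons, and edgeR 2252, 3584, 4 and 192. The fit of the compared groups gave 0 for age with exercise. Leaving out the other-tissue libraries gave 0, 0 and 1 for age without exercise, with exercise and averaged, and leaving out the pair of libraries that stood apart gave 0 for age with exercise. Over all genes, calls for age with exercise were 1299 without that pair and 2252 with all libraries. Leaving out each library gave 0 to 3 for age with exercise, 1 to 4 for age averaged and 0 to 1 for exercise averaged. For the 141 other cell cycle identifiers, no filter gave 5 for age averaged, DESeq2 16 there, 1 for exercise at 3 years and 2 for exercise averaged. Without the other-tissue libraries 0 were called for age with exercise, age averaged and exercise averaged, and without the pair 2 and 6 for age with exercise and averaged. Leaving out each library gave 2 to 7, 6 to 11 and 0 to 2 for age with exercise, age averaged and exercise averaged. Over all genes the count moved by the same rule in 6, 7 and 1 alternatives for age without exercise, with exercise and averaged. For exercise at 1 year and averaged it moved in 21 and 13. Counts over all genes are not given here for the other scalings and filters, the compared groups, or the other-tissue and single-library fits. These moves are therefore not read as results about the cell cycle genes. The cause was not tested. Scaling moved the median log2 fold change of all genes by at most 0.03. A fit of the compared groups cannot be made for averaged effects or their difference, which use all 4 groups. No paired analysis was possible because the labels give no replicate numbers shared between groups. Low counts limit some genes: gins2, ccnb2, birc5a and rrm2 (ENSDARG00000020711) had under 10 counts in their lowest library.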
